A study of Mus musculus with 8 samples.

Results

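The genes that carry peptides to the cell surface on MHC class I were followed in bone marrow-derived macrophages (BMDMs), macrophages grown in culture from bone marrow. The 10 genes comprised the class I heavy chains H2-K1, H2-D1, H2-Q4, H2-Q7 and H2-T23, the light chain B2m, the peptide transporter subunits Tap1 and Tap2, the loading factor Tapbp (tapasin) and the class I transactivator Nlrc5. They were picked by name as parts of the class I pathway, with earlier results of these data known, from the 50615 genes of the expected-count table, and all 10 were among the 17625 genes with a sum of at least 10 counts over the 8 libraries.

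The C57BL/6 donors of the Ncoa6-KO cells were Ncoa6 fl/fl LysM CRE mice, and those of the Ncoa6-sufficient cells, labelled WT, were Ncoa6 fl/fl mice, so that every library carried the floxed allele and the groups differed in Cre. Cre is expressed from the lysozyme 2 locus (Lyz2), which is active in myeloid cells. Bone marrow was cultured for 6 days in 20 ng/ml M-CSF. Cells then received either medium alone or 100 ng/ml LPS, a bacterial cell wall lipid, for 4 h followed by 200 µg/ml monosodium urate (MSU) crystals for 2 h. There were 4 groups, and each was measured as 2 libraries of poly(A) RNA from different mice. The ages of the mice are not given in the sources used here, and an effect of LPS cannot be told apart from one of MSU, because they were given together.

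MHC class I molecules display short peptides from inside the cell to CD8 T cells and NK cells. Proteasomes cut the peptides, the TAP transporter moves them into the endoplasmic reticulum (ER), and tapasin holds an empty heavy chain with its light chain at the transporter until a peptide binds. Most of these genes are induced by interferon and by NF-κB signalling, and the heavy chain promoters carry a conserved module that NLRC5 uses together with the RFX, CREB/ATF and NF-Y factors bound there. In macrophages, inflammatory stimuli are known to raise class I presentation.

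The libraries held between 25281955 and 33673552 counts. TMM scaling factors ran from 1.23 to 1.29 in medium-alone libraries and from 0.766 to 0.829 in LPS + MSU libraries. Ncoa6, which encodes the nuclear receptor coactivator that was deleted, stood at 48.2% of the sufficient level in Ncoa6-KO libraries with medium alone and at 44.1% with LPS + MSU, and its genotypes did not overlap in either condition. All 8 macrophage markers had at least 10 counts in every library, whereas the 6 T and NK cell markers had at most 3 in every library. Of 8 neutrophil markers, 5 had at least 10 counts in every library, and Ly6g had at most 3. The summed level of the macrophage markers, Lyz2 included, in counts scaled to library size (CPM), was lower in Ncoa6-KO libraries, at 11653 and 13092 against 17238 and 19747 CPM with medium alone and at 10489 and 10835 against 13454 and 14557 with LPS + MSU. Lyz2, at whose locus Cre was inserted, made up much of this sum. The other 7 markers summed to 7644 and 6745 CPM in Ncoa6-KO against 8329 and 8319 in sufficient libraries with medium alone, and to 7279 and 7004 against 7499 and 7603 with LPS + MSU. The summed level of 5 stromal markers was 6.30 and 8.44 CPM in replicate 1 of the Ncoa6-KO groups (medium alone and LPS + MSU), and between 17.2 and 24.5 in the other 6 libraries. In bulk RNA, fewer cells that express a gene cannot be told apart from less RNA per cell. The part of these marker levels in the results for class I genes was not tested.

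Promoters were examined first, because the heavy chain genes are known for a shared regulatory module. RefSeq gave the start of 8 of the 10 genes (not Tap2 or Nlrc5) on GRCm38.p6. In the 250 bases before each start, 4 short motifs were searched on both strands: GGGNNTTCC (κB-like, bound by NF-κB), GAANNGAAA (ISRE-like, bound by interferon regulatory factors), TGACG (the CREB/ATF core of the X2 box) and ATTGG (the Y box, the inverted CCAAT bound by NF-Y). No match shared a base with a match of another motif in these 8 promoters, and ATTGG and TGACG are short and common. Shown here are bases -180 to -10 of H2-K1 (chr17:34000357-34000527, reverse strand), H2-Q4 (chr17:35379437-35379607, forward strand), H2-Q7 (chr17:35438975-35439145, forward strand) and B2m (chr2:122147507-122147677, forward strand), written 5′ to 3′ on the strand of the gene with the motif matches in capitals. They were chosen because the response to LPS + MSU differed widely among these 4 genes, and because their windows lie outside the annotated exons of coding genes (the H2-Q4 window lies in an exon of the antisense gene Gm11131).
H2-K1: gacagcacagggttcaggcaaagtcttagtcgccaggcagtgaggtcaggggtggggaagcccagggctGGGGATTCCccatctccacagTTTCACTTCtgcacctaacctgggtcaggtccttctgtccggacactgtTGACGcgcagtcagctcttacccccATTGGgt
H2-Q4: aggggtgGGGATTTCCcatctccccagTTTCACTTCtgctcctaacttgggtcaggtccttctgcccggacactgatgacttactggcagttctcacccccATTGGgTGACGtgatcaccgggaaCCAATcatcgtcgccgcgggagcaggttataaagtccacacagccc
H2-Q7: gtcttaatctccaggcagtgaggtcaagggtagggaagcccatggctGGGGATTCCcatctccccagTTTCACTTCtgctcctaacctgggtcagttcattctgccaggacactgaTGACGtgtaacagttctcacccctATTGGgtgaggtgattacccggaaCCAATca
B2m: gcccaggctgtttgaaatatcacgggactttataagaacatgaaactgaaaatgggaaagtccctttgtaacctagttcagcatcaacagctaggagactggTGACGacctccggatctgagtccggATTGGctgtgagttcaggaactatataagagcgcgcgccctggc

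The 4 motifs occurred together in the promoters of H2-K1, H2-D1, H2-Q4 and H2-Q7. Of 27025 RefSeq promoters of the same length, 10 (0.0370%) held all 4 motifs. Among these 10 were the same 4 promoters and that of another heavy chain gene, H2-M2. The κB-like match was in 4 of the 8 class I promoters and in 4.88% of all promoters, and the ISRE-like match was in 4 of 8 and in 6.34% of all. TGACG was in 6 of 8 and in 17.9% of all, and ATTGG was in 8 of 8 and in 34.5% of all. The first base of the ISRE-like match followed that of the κB-like match by 21 bases in H2-K1 and H2-D1 and by 20 bases in H2-Q4 and H2-Q7. TGACG began 49 bases further on in H2-K1, H2-D1 and H2-Q7, and ATTGG began 25 bases after it in H2-K1, H2-D1 and B2m and 24 bases after it in H2-Q7. H2-Q4 had another layout, with TGACG 80 bases after the ISRE-like match and 6 bases after the forward ATTGG. In the same window H2-T23 and Tapbp held ATTGG alone, Tap1 held ATTGG and TGACG, and B2m held TGACG and ATTGG. A match is a description of letters, not of binding, and other forms of these elements were not searched. The B2m sequence shown holds gaaactgaaa and gggaaagtccc, which resemble the ISRE-like and κB-like strings without matching them.

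**Figure D1:**
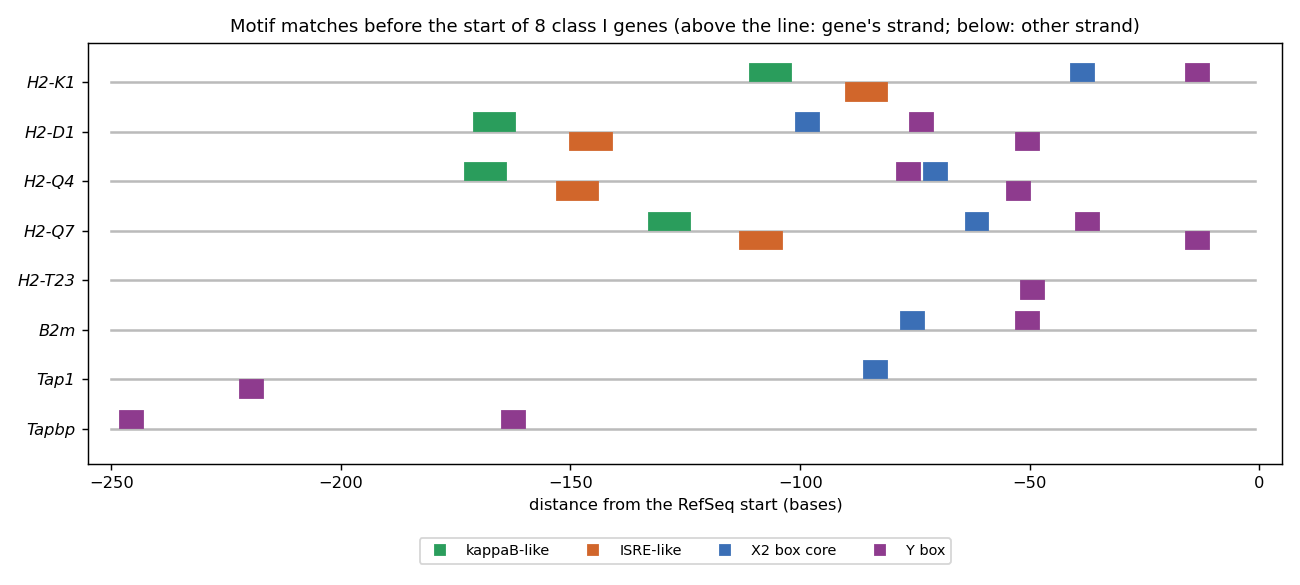
Motif matches in the 250 bases before the RefSeq start of 8 class I genes. The horizontal axis is the distance from the start in bases, coloured boxes are matches to the 4 motifs, and boxes above the line are on the strand of the gene. H2-K1, H2-D1 and H2-Q7 show the same order of boxes, and H2-Q4 has the X2 box core after the Y box. H2-T23, B2m, Tap1 and Tapbp hold exact matches to 1 or 2 of the motifs, and other forms of the motifs were not searched.

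Expression levels of the genes were compared per kilobase of exon, as normalized counts (each library brought to an effective size of 29332189, the mean of the 8) divided by the length of the merged exons. In Ncoa6-sufficient BMDMs with medium alone, B2m led with 47084 ± 9230 (SD, n = 2) normalized counts per kb, ahead of H2-D1 with 21551 ± 2662 and H2-K1 with 8996 ± 991. Tapbp followed with 3162 ± 387 and H2-T23 with 1562 ± 320 per kb. H2-Q4 (738 ± 74.3), Tap2 (592 ± 27.1) and Tap1 (577 ± 56.9 per kb) lay close together, and the libraries of Tap2 and Tap1 overlapped. Nlrc5 stood at 170 ± 5.07 per kb and H2-Q7 at 12.5 ± 3.71, the lowest level of the 10 genes. The light chain and the classical heavy chains were thus the most abundant, and the order was the same for ranks 1 to 4, 9 and 10 in all 4 groups. With LPS + MSU, Tap1 moved from rank 8 to rank 5, at 8154 ± 160 per kb (sufficient) and 6483 ± 620 per kb (Ncoa6-KO), where its libraries overlapped those of H2-T23 in each genotype. In Ncoa6-KO BMDMs the libraries of H2-Q4 overlapped those of Tap2 and Tap1 with medium alone, and those of H2-T23 with LPS + MSU. Together the 10 genes took 0.463% to 0.679% of all counts in the 4 libraries with medium alone and 1.16% to 1.39% in the 4 with LPS + MSU.

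H2-K1 (chr17:33996017-34000347, GRCm38, reverse strand) and H2-D1 (chr17:35262730-35267499, forward strand) encode the classical heavy chains of this strain. With medium alone, H2-K1 had 28487 and 24371 normalized counts in Ncoa6-sufficient and 26945 and 20487 in Ncoa6-KO libraries. With LPS + MSU it had 88415 and 83409 in Ncoa6-sufficient and 94581 and 78841 in Ncoa6-KO libraries. The genotypes overlapped in both conditions, and every LPS + MSU library was above every library with medium alone. H2-D1 had 60434 and 50724 normalized counts in Ncoa6-sufficient and 61155 and 47395 in Ncoa6-KO libraries with medium alone. With LPS + MSU, H2-D1 had 139702 and 126562 in Ncoa6-sufficient and 143456 and 122594 in Ncoa6-KO libraries. Again the genotypes overlapped in both conditions and the culture conditions did not.

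H2-Q4, H2-Q7 and H2-T23 encode nonclassical (class Ib) heavy chains, which vary little between mice. H2-Q4 (chr17:35379617-35385290, forward strand) had 2053 and 1781 normalized counts in Ncoa6-sufficient and 1583 and 1032 in Ncoa6-KO libraries with medium alone. With LPS + MSU it had 13330 and 14017 in Ncoa6-sufficient and 14712 and 13224 in Ncoa6-KO libraries. The genotypes were thus separate with medium alone and overlapped with LPS + MSU. H2-T23 (chr17:36029773-36032855, reverse strand), which presents leader peptides of other class I chains to receptors of NK cells, had 5164 and 3859 in Ncoa6-sufficient and 3470 and 1985 in Ncoa6-KO libraries with medium alone. With LPS + MSU it had 23648 and 20328 in Ncoa6-sufficient and 19164 and 14499 in Ncoa6-KO libraries, and the genotypes did not overlap in either condition. Of all genes, 24.5% (medium alone) and 22.7% (LPS + MSU) had both Ncoa6-KO libraries below both sufficient libraries. H2-Q7 (chr17:35439155-35443773, forward strand) was scarce, with 64.5 and 42.2 normalized counts in Ncoa6-sufficient and 60.5 and 45.7 in Ncoa6-KO libraries with medium alone. With LPS + MSU, H2-Q7 had 562 and 467 in Ncoa6-sufficient and 544 and 367 in Ncoa6-KO libraries. Its genotypes overlapped in both conditions. H2-Q7 is also the member whose reads are least its own: 12.0% of the 100-base windows of its transcripts occurred unchanged in transcripts of other genes, against 3.59% for H2-D1, 3.15% for H2-T23, 2.16% for H2-Q4, 0.957% for H2-K1, 0.0775% for Tapbp and 0% for B2m, Tap1, Tap2 and Nlrc5. The values of H2-Q7 depend most on how RSEM divided shared reads.

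B2m (chr2:122147686-122153083, forward strand) encodes the light chain that every class I heavy chain needs to reach the cell surface. It had 46104 and 34879 normalized counts in Ncoa6-sufficient and 33604 and 24179 in Ncoa6-KO libraries with medium alone. With LPS + MSU it had 120072 and 88182 in Ncoa6-sufficient and 90432 and 66950 in Ncoa6-KO libraries. The genotypes were separate with medium alone, where the lowest sufficient library stood just above the highest Ncoa6-KO library, and overlapped with LPS + MSU. Of all genes, 24.5% were separate in this direction with medium alone.

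Tap1 (chr17:34187553-34197225, forward strand) and Tap2 (chr17:34203527-34216321, forward strand) encode the subunits of the peptide transporter, and Tapbp (chr17:33915899-33929292, forward strand) encodes tapasin, which bridges the transporter and the heavy chain. Tap1 had 3382 and 2941 normalized counts in Ncoa6-sufficient and 2357 and 1768 in Ncoa6-KO libraries with medium alone, and 45272 and 44033 against 37898 and 33100 with LPS + MSU. Tap2 had 2168 and 2312 in Ncoa6-sufficient and 2100 and 1836 in Ncoa6-KO libraries with medium alone, and 18139 and 19235 against 16989 and 15564 with LPS + MSU. Tapbp had 12467 and 10480 in Ncoa6-sufficient and 8407 and 5969 in Ncoa6-KO libraries with medium alone, and 60330 and 53028 against 48158 and 43208 with LPS + MSU. For these 3 genes both Ncoa6-KO libraries were below both Ncoa6-sufficient libraries in each condition, where 24.5% (medium alone) and 22.7% (LPS + MSU) of all genes were. Tap1 overlaps Psmb9 on the opposite strand, and Tapbp overlaps Zbtb22 on the same strand, where reads of the overlap could count for either gene.

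Nlrc5 (chr8:94434356-94527272, forward strand) encodes the NLR protein that switches on class I promoters. It had 1412 and 1473 normalized counts in Ncoa6-sufficient and 1256 and 933 in Ncoa6-KO libraries with medium alone. With LPS + MSU it had 21403 and 23116 in Ncoa6-sufficient and 20493 and 20700 in Ncoa6-KO libraries. The Ncoa6-KO libraries were below the sufficient libraries in both conditions, by a wider margin relative to the level with medium alone. Of all genes, 24.5% (medium alone) and 22.7% (LPS + MSU) were separate in this direction.

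**Figure D2:**
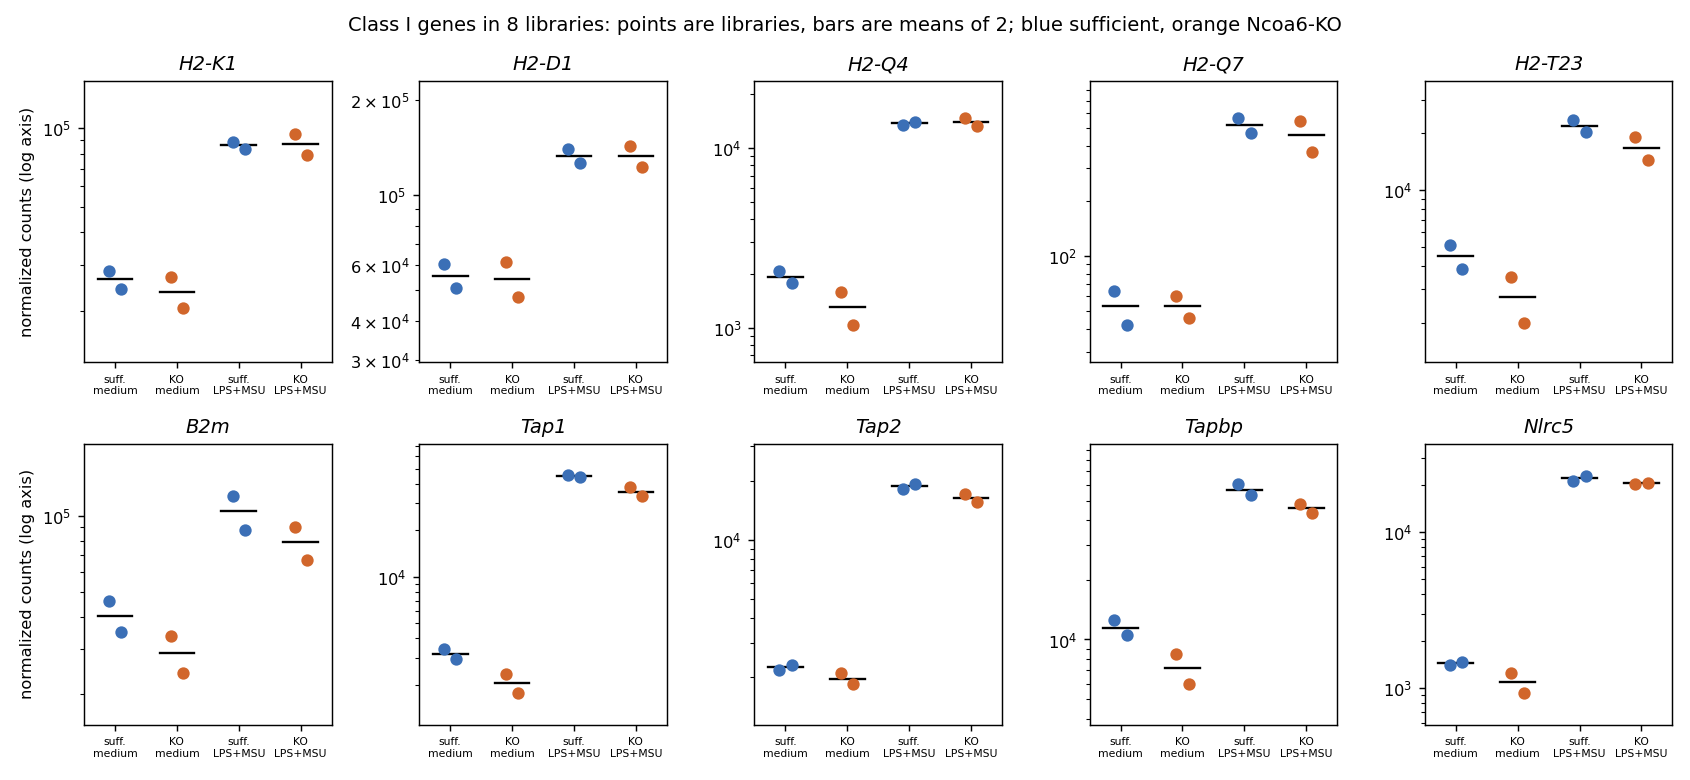
Normalized counts of the 10 class I genes in the 8 libraries, with a log vertical axis for each gene. Points are libraries, black bars are means of 2 libraries, blue is Ncoa6-sufficient and orange is Ncoa6-KO. Every LPS + MSU library lies above every library with medium alone, and in the Ncoa6-KO group with medium alone replicate 1 (left point) lies above replicate 2 for all 10 genes.

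The knockout comparison with medium alone asked which class I genes depended on the genotype before stimulation. With edgeR's quasi-likelihood test and Benjamini-Hochberg adjustment over all genes, 0 of the 10 genes passed an adjusted p of 0.05, where 1.88% of all genes tested did. At an unadjusted p under 0.05, 6 of 10 were lower in Ncoa6-KO BMDMs (H2-Q4, H2-T23, B2m, Tap1, Tapbp and Nlrc5), where 7.86% of all genes were. For 7 of 10, those 6 and Tap2, both Ncoa6-KO libraries were below both sufficient libraries, where 24.5% of all genes were. The log2 fold change was below 0 for all 10 genes, with a median of -0.44, where the median of all genes was -0.03 and 55.7% of genes were below 0. DESeq2 called 3 of the 10 (H2-Q4, Tap1 and Tapbp) and 496 of all genes. Limma-voom called 2 (Tap1 and Tapbp) and 396 of all genes, where the edgeR fit above called 331. In edgeR, the fit with no filter called the 6 with an unadjusted p under 0.05, and 1152 of all genes. The fit with a replicate block called 5, those without Nlrc5, and 1023 of all genes. This block joined libraries of equal replicate number across genotypes. Such libraries come from different mice, and the sources used here do not pair them.

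Tapbp had a log2 fold change of -0.67 (SE 0.17), which is 62.7% of the sufficient level (adjusted p = 0.077, edgeR). Tap1 had -0.62 (SE 0.15), which is 65.3% of the sufficient level (adjusted p = 0.0676, edgeR). These adjusted p-values were the smallest among the 10 genes and missed the threshold. H2-T23 had the largest log2 fold change of the 10 genes, -0.72 (SE 0.24), which is 60.5% of the sufficient level, with an adjusted p of 0.189 by edgeR, and its Ncoa6-KO libraries differed from each other by 1.75-fold. H2-Q4 had -0.55 (SE 0.17) with an adjusted p of 0.163, Nlrc5 -0.40 (SE 0.14) with 0.207, and B2m -0.49 (SE 0.22) with 0.383, all by edgeR. Tap2, the partner of Tap1 in the transporter, had -0.19 (SE 0.11), and the classical heavy chains H2-K1 and H2-D1 had -0.16 (SE 0.16) and -0.03 (SE 0.16). H2-Q7 had -0.01 (SE 0.28), with the largest error of the 10 genes.

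The 2 libraries of each genotype differed from each other with medium alone. The part of this spread in the missed calls was not tested. With medium alone, replicate 1 of Ncoa6-KO was above replicate 2 for 10 of 10 genes, with a median ratio of 1.34-fold, while the median log2 ratio of all genes between these libraries was 0.02. In the Ncoa6-sufficient group, replicate 1 was above replicate 2 for 8 of 10 genes with a median ratio of 1.18-fold. Without Ncoa6-KO replicate 1, the library with few stromal markers, the median log2 fold change was -0.68. Without Ncoa6-KO replicate 2, the median was -0.23. In such a fit the lone library is assumed to vary like those of the other groups.

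The same comparison was made with LPS + MSU. Of the 10 genes, 0 were called by edgeR, DESeq2 or limma-voom, where edgeR called 3.59% of all genes. Tap1 alone was lower at an unadjusted p under 0.05, where 8.16% of all genes were. For 5 of 10 (H2-T23, Tap1, Tap2, Tapbp and Nlrc5), both Ncoa6-KO libraries were below both sufficient libraries, where 22.7% of all genes were. The median log2 fold change was -0.19, where that of all genes was 0.00. Below 0 were 8 of 10 genes, where 49.3% of all genes were.

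Tap1 had a log2 fold change of -0.33 (SE 0.14), which is 79.5% of the sufficient level (adjusted p = 0.267, edgeR). B2m had -0.40 (SE 0.22) and H2-T23 -0.39 (SE 0.24), with adjusted p-values of 0.387 and 0.449 by edgeR. Tapbp had -0.31 (SE 0.16), Tap2 -0.20 (SE 0.11), H2-Q7 -0.18 (SE 0.21) and Nlrc5 -0.11 (SE 0.13). H2-K1, H2-D1 and H2-Q4 had values of 0.01 (SE 0.16), -0.00 (SE 0.16) and 0.03 (SE 0.17), and the sign of each of the 3 turned under other scalings or when a library was left out. H2-T23, Tapbp, Tap1 and H2-Q4 had the most negative values with medium alone, and B2m, H2-T23, Tap1 and Tapbp had them with LPS + MSU.

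**Figure D3:**
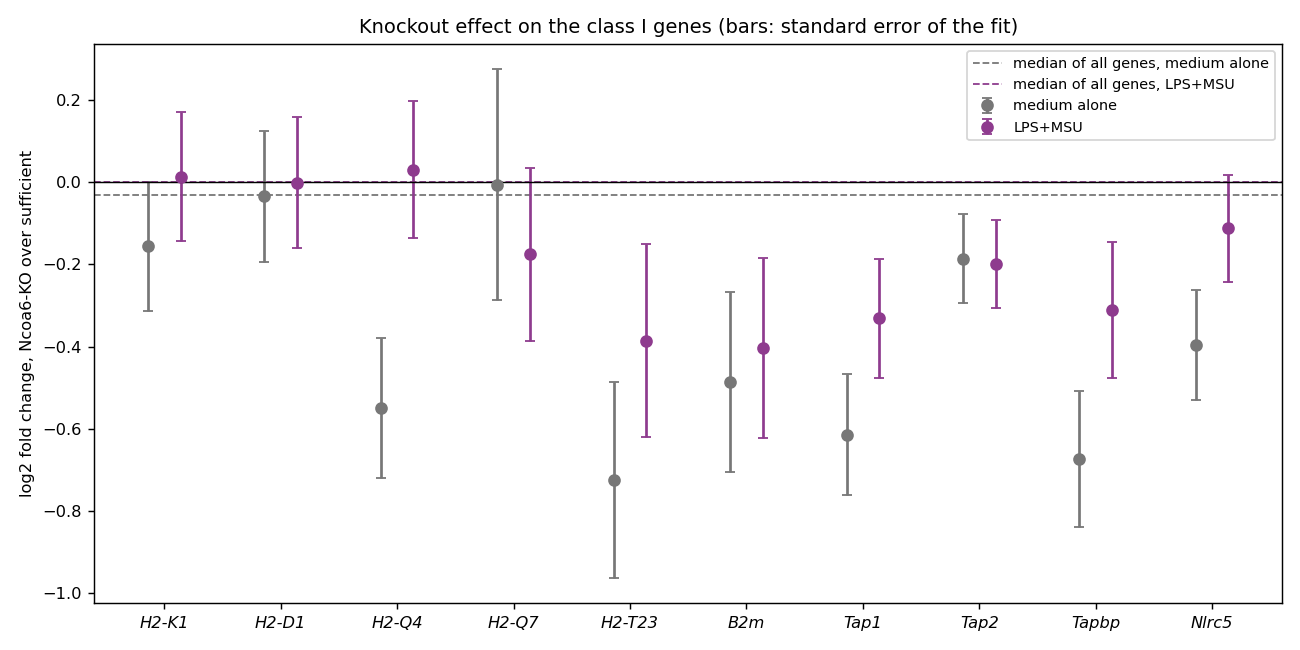
Knockout effects on the 10 class I genes as log2 fold changes (Ncoa6-KO over sufficient) for medium alone (grey) and LPS + MSU (purple). Bars are standard errors of the fit and dashed lines are the medians of all genes. With medium alone the points run from -0.72 for H2-T23 to -0.01 for H2-Q7, and with LPS + MSU from -0.40 for B2m to 0.03 for H2-Q4.

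The comparison of LPS + MSU with medium alone asked how stimulation changed class I genes in each genotype. All 10 genes rose in Ncoa6-sufficient BMDMs, where 24.7% of all genes rose, and all 10 rose in Ncoa6-KO BMDMs, where 25.2% of all genes rose. On the log2 scale the median rise of the 10 genes was 2.57 in the sufficient genotype and 2.86 in the knockout, and the median change of all genes was -0.12 and -0.07. Each of the 10 genes was called in both genotypes under every alternative fit, including those without each library in turn.

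Nlrc5 rose the most, by 15.4-fold in Ncoa6-sufficient BMDMs (log2 fold change 3.95, SE 0.15, adjusted p = 3.07e-09, edgeR) and by 18.8-fold in Ncoa6-KO BMDMs (4.23, SE 0.15, adjusted p = 2.11e-09). Tap1 rose by 14.1-fold in Ncoa6-sufficient and 17.2-fold in Ncoa6-KO BMDMs, whereas Tap2 rose by 8.34-fold and 8.27-fold. Tapbp rose by 4.94-fold in Ncoa6-sufficient and 6.35-fold in Ncoa6-KO BMDMs. Among the 5 heavy chain genes, H2-Q4, H2-Q7 and H2-T23 had larger fold changes than H2-K1 and H2-D1, a difference that was not tested. H2-Q7 rose by 9.55-fold in Ncoa6-sufficient and 8.49-fold in Ncoa6-KO BMDMs, H2-Q4 by 7.13-fold and 10.7-fold, and H2-T23 by 4.87-fold and 6.16-fold. H2-K1 rose by 3.25-fold and 3.66-fold, and H2-D1, with the same 4 promoter motifs as H2-K1, H2-Q4 and H2-Q7, by 2.40-fold and 2.45-fold. B2m rose by 2.57-fold in Ncoa6-sufficient BMDMs (adjusted p = 0.000294, edgeR) and by 2.72-fold in Ncoa6-KO BMDMs (adjusted p = 0.000206). The most abundant genes per kb, B2m, H2-D1 and H2-K1, had the 3 smallest fold changes in both genotypes.

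**Figure D4:**
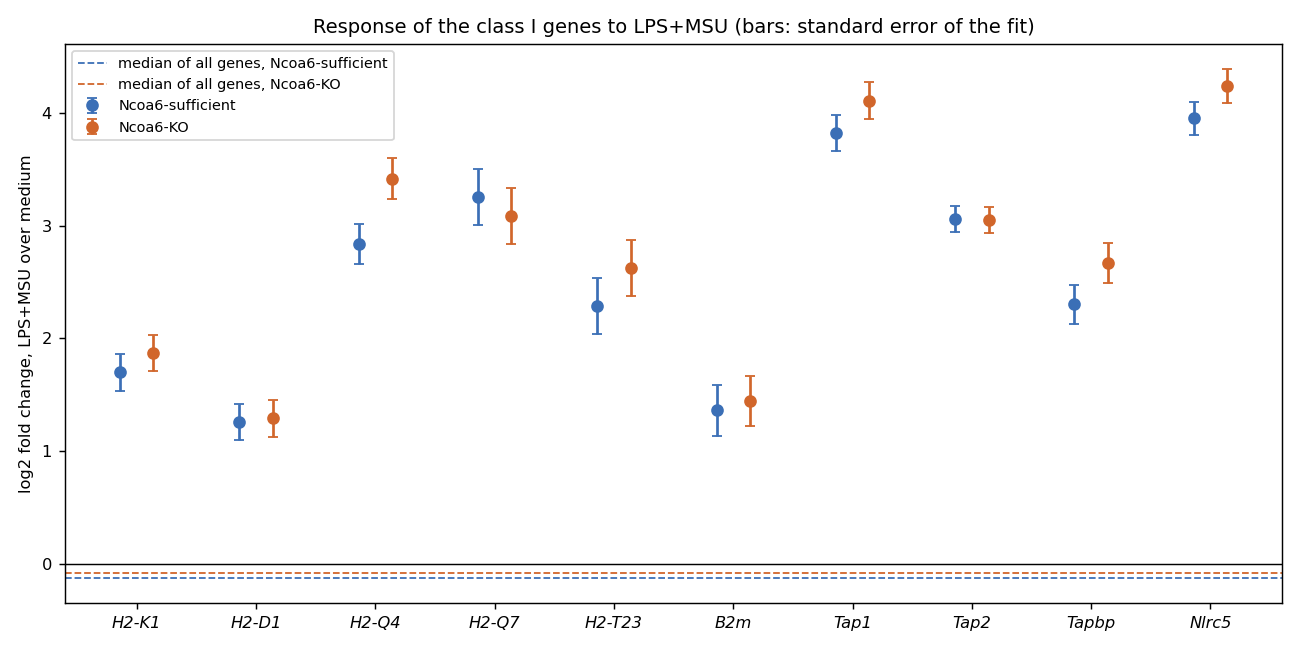
Responses of the 10 class I genes as log2 fold changes (LPS + MSU over medium alone), blue for Ncoa6-sufficient and orange for Ncoa6-KO BMDMs. Bars are standard errors of the fit and dashed lines are the medians of all genes. All points lie above 1.2, from 1.26 for H2-D1 to 3.95 for Nlrc5 in Ncoa6-sufficient and from 1.29 to 4.23 for the same genes in Ncoa6-KO BMDMs.

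The difference between these responses was tested as the interaction of genotype and culture condition. None of the 10 genes was called by edgeR, DESeq2 or limma-voom, where edgeR called 0% of all genes, with 1045 genes at an unadjusted p under 0.05 (DESeq2 called 43 genes and limma-voom 0). At an unadjusted p under 0.05, 1 gene (H2-Q4) had a larger response in Ncoa6-KO BMDMs, where 4.11% of all genes did. Its difference was 0.58 (SE 0.24) on the log2 scale, with an unadjusted p of 0.0332 and an adjusted p of 0.803 by edgeR. Tapbp had a difference of 0.36 (SE 0.23), H2-T23 0.34 (SE 0.33), and Tap1 and Nlrc5 0.28 (SE 0.21 and 0.19). H2-K1 had 0.17 (SE 0.22), B2m 0.08 (SE 0.31), H2-D1 0.03 (SE 0.23), Tap2 -0.01 (SE 0.15) and H2-Q7 -0.17 (SE 0.35). The median over the 10 genes was 0.23, where that of all genes was 0.06. Without Ncoa6-KO replicate 1 with medium alone the median was 0.44, and without Ncoa6-KO replicate 2 with medium alone it was -0.01. H2-Q4 was called in the edgeR fits with no filter (269 of all genes called) and with a replicate block within genotype (444 of all genes called). The other 9 genes were called in none of the alternatives.

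Other genes of the class I pathway were described as 4 lists, with 61 genes of which 49 were tested. With medium alone, 0 of the 49 were higher and 3 were lower in Ncoa6-KO BMDMs, the heavy chain gene H2-T24, the immunoproteasome subunit gene Psmb10 and the tapasin homologue gene Tapbpl. Of all genes tested, 0.573% were called higher and 1.3% lower. Of the list genes, DESeq2 called 9 lower (358 of all genes) and limma-voom 4 (262 of all genes). In edgeR, the fit with no filter called 10 lower (761 of all genes) and the replicate block 12 (692 of all genes). The edgeR fits with DESeq2's size factors, with filterByExpr and with only the 4 libraries compared called 1 each (192, 186 and 154 of all genes). The median log2 fold change of the 49 genes was -0.15, where that of all genes was -0.03. H2-T24 had 802 and 496 normalized counts in Ncoa6-sufficient and 290 and 155 in Ncoa6-KO libraries with medium alone, and it fell by 1.53 on the log2 scale (SE 0.30, adjusted p = 0.0298, edgeR). Psmb10 had 1506 and 1200 in Ncoa6-sufficient and 934 and 794 in Ncoa6-KO libraries and fell by 0.65 on the log2 scale (SE 0.14, adjusted p = 0.0483, edgeR). Tapbpl had 731 and 640 in Ncoa6-sufficient and 484 and 399 in Ncoa6-KO libraries and fell by 0.63 on the log2 scale (SE 0.14, adjusted p = 0.0474, edgeR). The genotypes of these 3 genes did not overlap with medium alone, where 24.5% of all genes were lower in Ncoa6-KO BMDMs without overlap. The calls of Psmb10 and Tapbpl lay close to the threshold, and both were lost in edgeR with DESeq2's size factors, with filterByExpr and with only the 4 libraries compared, and that of Tapbpl also with limma-voom (largest adjusted p over fits that left out no replicate 0.0604 for Psmb10 and 0.0583 for Tapbpl). When each library was left out in turn, Psmb10 was called in 0 of 8 fits and Tapbpl in 1 of 8, the fit without Ncoa6-KO replicate 1. The call of H2-T24 was lost without replicate 1 of the sufficient group (adjusted p = 0.35) or replicate 2 of the Ncoa6-KO group (0.127).

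Among all genes tested with medium alone, 55.7% were below 0 and 12.8% had an unadjusted p under 0.05. By list, the other heavy chains had 23 genes, of which 11 were tested. With medium alone 7 of the 11 were below 0, and their median was -0.25 on the log2 scale. Of the 12 peptide generation genes (proteasome subunits and cytosolic peptidases), all tested, 9 were below 0 with a median of -0.13, and 6 had an unadjusted p under 0.05, all of them lower in Ncoa6-KO BMDMs. The immunoproteasome genes Psmb8 and Psmb9 had log2 fold changes of -0.51 (adjusted p = 0.0509) and -0.63 (adjusted p = 0.0514, edgeR), just outside the threshold that Psmb10 passed. Of 11 genes of loading and trimming in the ER, 9 were below 0 with a median of -0.17. Of 15 transcriptional regulators, 13 were below 0 with a median of -0.12. Psmb8 and Psmb9, the neighbours of Tap1 and Tap2, were named after their values were seen.

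With LPS + MSU, 0 of the 49 pathway genes were called between genotypes by edgeR, 9 had an unadjusted p under 0.05, where 17.4% of all genes tested had one, and DESeq2 called 2 (the peptidase genes Blmh and Lnpep, lower in Ncoa6-KO and named after their values were seen) and limma-voom 0. The median of the 49 was -0.10, where that of all genes was 0.00. H2-T24 had 5981 and 4382 normalized counts in Ncoa6-sufficient and 3167 and 2373 in Ncoa6-KO libraries, a log2 fold change of -0.90 (SE 0.27) with an adjusted p of 0.099 by edgeR. In response to LPS + MSU itself, 32 of the 49 rose and 7 fell in Ncoa6-sufficient BMDMs, and 32 rose and 8 fell in Ncoa6-KO BMDMs. Of all genes tested, 24.7% rose and 30.5% fell in the sufficient genotype, and 25.2% rose and 27.9% fell in the knockout. On the log2 scale, the median response of the peptide generation genes was 1.5 in the sufficient genotype and 1.31 in the knockout, and that of the other heavy chains was 2.68 and 2.60. The loading and trimming genes other than Tap1, Tap2 and Tapbp had medians of 0.34 and 0.40, with 6 called higher and 0 lower in the sufficient genotype. The transcriptional regulators moved in both directions, with 8 of 15 called higher and 5 lower in each genotype.

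**Figure D5:**
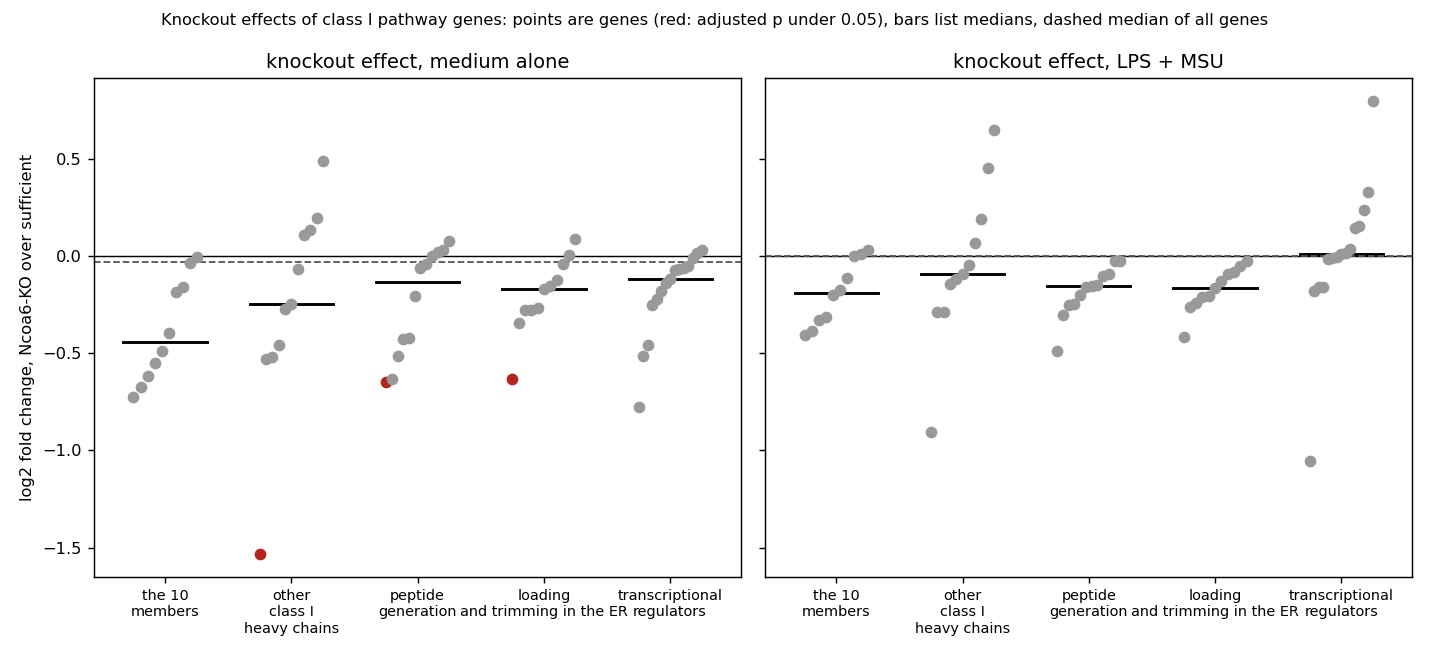
Knockout effects as log2 fold changes (Ncoa6-KO over sufficient) for the 10 class I genes and 4 lists of other pathway genes, for medium alone (left) and LPS + MSU (right). Points are genes, red points have an adjusted p under 0.05, black bars are list medians and the dashed line is the median of all genes. The 3 red points, with medium alone, are H2-T24, Psmb10 and Tapbpl.

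The profile of the 10 genes over the 8 libraries was compared with that of the 11209 other genes whose normalized counts averaged 50 or more. The 5 genes with the highest Pearson r to the mean of the centred log2 CPM of the 10 genes were Mov10, Slfn5, Keap1, Eng and Slfn2, with r between 0.9994 and 0.9997. Within the 10 genes, r with the mean of the other 9 ran from 0.957 for B2m to 0.998 for Tap1. The 8 points fall into a pair of clusters, medium alone and LPS + MSU, which sets r near 1 for any gene that rose clearly, and 2045 of the 11209 genes had an r at least as high as that of B2m. Between genotypes, Mov10 differed by -0.39 (medium alone) and -0.26 (LPS + MSU) on the log2 scale, and Slfn5 by -0.58 and -0.33.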

How the data were processed

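Total RNA of 8 mouse BMDM libraries was made into stranded poly(A) libraries and sequenced as pairs of 100-base reads. The authors aligned reads with STAR 2.7.3a and estimated counts per gene with RSEM 1.3.3 on GRCm38. The deposited expected counts, not normalized, were rounded to whole numbers, which loses little at these depths. Shared reads are divided by RSEM's model, so genes with near-identical copies are uncertain.

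A minimum of 10 counts summed over the 8 libraries kept 17625 genes. The quasi-likelihood test of edgeR 4.0.16 (R 4.3.3) was run after TMM scaling on 4 groups of 2 libraries, with 4 residual degrees of freedom and Benjamini-Hochberg adjustment over all genes at 0.05. The median biological coefficient of variation was 0.114. Because 2 libraries against 2 allow no exact permutation p below 0.333, p-values of single genes come from this fit alone. Alternatives used DESeq2 1.42.0, limma-voom (limma 3.58.1), other scalings and filters, a replicate block, the 4 libraries compared alone, and each library left out in turn. The code was tested on simulated data.

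Gene positions and exon lengths came from GENCODE vM21, another release of the GRCm38 annotation, and promoters from RefSeq. Named beside the 10 genes were Ncoa6, called genes with the largest change from each of the 4 lists (at most 3 in each direction, in either knockout comparison) and the 5 genes with the most similar profile. The members and lists were chosen with earlier results of these data known. H2-L, H2-Q8, H2-Q9, H2-T9 and H2-T13 were not analysed here. Whether libraries with equal replicate numbers share a mouse is not given in the sources used here.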

Additional observations from a re-analysis of the deposited data

How the results depend on the processing

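The response to LPS + MSU was called for all 10 genes in both genotypes under every alternative. The knockout calls moved with the setting. With medium alone, where edgeR called 0 of the 10, DESeq2 called 3, limma-voom 2, the fit with no filter 6 and the fit with a replicate block 5. With LPS + MSU the fit with no filter called 2 (H2-T23 and B2m) and the replicate block 3 (those and Tap1). In the interaction, the fit with no filter and the replicate block within genotype each called 1 gene, H2-Q4. With no filter, edgeR called 1152 of all genes with medium alone and 1611 with LPS + MSU, against 331 and 632, and the block called 1023 and 1532. With LPS + MSU the 632 were 345 higher and 287 lower in Ncoa6-KO BMDMs, and DESeq2 called 346 higher and 503 lower. The cause was not tested.

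No paired reading is given, because libraries with the same number deviated together only in part: the correlation of their differences between replicates over 11219 genes was 0.31 between culture conditions of sufficient and 0.369 of Ncoa6-KO BMDMs, but 0.0523 to 0.199 between other groups.

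Leaving out a library moved the median log2 fold change of the 10 genes between -0.68 and -0.23 (knockout, medium alone), -0.35 and -0.13 (knockout, LPS + MSU), 2.46 and 2.73 (response, sufficient), 2.67 and 3.12 (response, Ncoa6-KO) and -0.011 and 0.44 (interaction). The call of Ncoa6 with medium alone was lost without sufficient replicate 1 (log2 fold change -0.996, adjusted p = 0.0578). Ncoa6 lay between -1.23 and -0.90 in these fits.

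Signs turned for genes near 0, and the turned values were at most 0.023 in size on the log2 scale in fits with no library left out. For the knockout effect with medium alone, H2-Q7 was 0.012 with DESeq2, 0.013 with its size factors and with limma-voom, 0.0017 with filterByExpr and 0.014 in the fit of the 4 libraries. For the knockout effect with LPS + MSU, DESeq2 and its size factors gave -0.023 for H2-K1 and -0.0058 for H2-Q4, and the fit of the 4 libraries gave 0.0019 for H2-D1. In the interaction, DESeq2 and its size factors gave -0.022 for H2-D1. With a library left out, the ranges that crossed 0 were -0.37 to 0.029 (H2-K1), -0.23 to 0.14 (H2-D1) and -0.27 to 0.34 (H2-Q7) for the knockout effect with medium alone. With LPS + MSU they were -0.14 to 0.14 (H2-K1), -0.14 to 0.10 (H2-D1), -0.066 to 0.10 (H2-Q4), -0.51 to 0.076 (H2-Q7) and -0.27 to 0.00058 (Tapbpl). In the interaction they were -0.022 to 0.38 (H2-K1), -0.14 to 0.23 (H2-D1), -0.54 to 0.093 (H2-Q7), -0.0074 to 0.80 (H2-T23), -0.20 to 0.34 (B2m) and -0.13 to 0.086 (Tap2).

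With the longest transcript as length, levels in the sufficient group with medium alone were 26441 normalized counts per kb for H2-D1, 14103 for H2-K1, 3959 for Tapbp, 808 for Tap1, 651 for Tap2 and 190 for Nlrc5, which placed Tap1 above H2-Q4 and Tap2. Low counts limit the precision of H2-Q7.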
